A study of Populus trichocarpa with 45 samples.

Results

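Branches 13.1 and 14.4 were the pair of branches farthest apart in leaf expression among the branches of trees 13 and 14 of Populus trichocarpa, the black cottonwood. The pair held 6 of the 45 libraries of the series, 3 per branch. It was chosen by the expression values themselves, so every difference between 13.1 and 14.4 is given as a description and not as a test. Values for the same genes in libraries of neither branch are given apart. Those libraries did not enter the difference between 13.1 and 14.4, but the pair was ranked against pairs of their branches, and 18 of them shared in the error estimate behind the calls.

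The series measured mRNA by strand-specific sequencing of leaf tissue from 15 branches in 3 libraries per branch, with 5 branches on each of the trees numbered 13, 14 and 4. Branch 13.1 belongs to tree 13 and branch 14.4 to tree 14, which the study describes as stems of 1 individual that share a root system and trunk. The study lists tree 4 as another tree of the same stand, while the labels give 1 wild tree as the source of all samples. Tree 4 is therefore not counted here as part of the individual of trees 13 and 14. The plants were wild and untreated, and neither branch carried an engineered allele. The study calls the 3 libraries of a branch biological replicates in its results and technical replicates in its methods, so the errors below measure spread between libraries of 1 branch, which may be technical. Each stem is represented by a single branch in the pair, so branch and stem cannot be told apart within it. The age of branch 14.4 and of the stem at 13.1 was estimated from diameter in the study and was not used here. Branches 13.4 and 14.1 were left out of the study's comparisons because their ages could not be determined, and branch 14.5 provided the reference genome.

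Leaves on different branches of a tree descend from a shared zygote through separate meristems, and therefore carry nearly the same genome. Transcript levels in a leaf follow its age, its light and water supply, herbivores and pathogens, and the hour of sampling, as well as any change inherited along the branch. Leaf tissue is a mixture of mesophyll, epidermal, guard and vascular cells. In such bulk tissue, fewer cells of a type and less RNA per cell cannot be told apart. The files give gene identifiers without names, so no gene function is described and leaf identity could not be checked against marker genes.

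Expression was read as TPM, a length-corrected level with a fixed sum over the genes of a library, divided by a scaling factor per library (median of ratios) and placed on the log2(scaled TPM + 1) scale. On this scale the changes of weakly expressed genes are understated. Depth was recovered from the smallest steps of the FPKM values. It was between 20300000 and 24650000 fragments in the 13.1 libraries and between 21310000 and 25870000 in the 14.4 libraries, within a range of 11900000 to 35840000 over all 45. Genes above 0 numbered 28515 to 28946 in 13.1 and 28131 to 28520 in 14.4, of 34700 in the files. The scaling factor was 1.06 to 1.12 in 13.1 and 0.861 to 1.004 in 14.4, without overlap (exact permutation test, two-sided, p = 0.1, the smallest that 3 against 3 libraries allow). A set of 198 genes that rose and fell together between libraries of 1 branch took 3.86 to 11.7% of TPM in 13.1 and 6.77 to 17.8% in 14.4 (exact permutation p = 0.5). Of these, 194 were tested in the pair and 0 were called under the rule given below, against 4.22% of all tested genes. Their median log2 change was -0.64, against -0.0008 over all tested genes. The set was picked by variation between libraries of 1 branch, the same spread that the calls are judged against. Nothing is therefore read from the count of 0.

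Pearson's correlation r between branch means was used to place the pair among the others. The distance 1 - r was 0.01691 between 13.1 and 14.4, the largest of the 28 pairs among the 8 branches the study compared and of the 45 pairs among all 10 branches of trees 13 and 14. The pair just below it was 13.1 and 14.5, at 0.01508. Over all 105 pairs of the series it stood at rank 6, after 5 pairs that each held a branch of tree 4, with 13.1 and 4.5 the farthest at 0.02464. The label of farthest pair therefore held within trees 13 and 14 and not over the whole series. Between single libraries of 13.1 and 14.4 the distance was 0.0192 to 0.0251 (n = 9 pairs of libraries), above the 0.00716 to 0.0107 found among the 13.1 libraries and the 0.00446 to 0.00576 found among the 14.4 libraries. The nearest library to each 13.1 library was another 13.1 library, whereas 2 of the 3 libraries of 14.4 were nearest to a library of 14.5.

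In a joint limma fit of the 24 libraries of those 8 branches, a gene was called when its adjusted p was 0.01 or less and its log2 change, 13.1 minus 14.4, was 1 or more in either direction. Of 23383 tested genes, 987 were called, which is 4.22%. Among them 552 (2.36%) were higher in 13.1 and 435 (1.86%) were lower in 13.1. The count was the highest of the 28 pairs, followed by 849 for 13.1 against 14.5, 672 for 13.1 against 14.3 and 388 for 13.2 against 14.4. Because the pair was selected on these values, nothing is read from the percentages. The values of the libraries of 13.1 and 14.4 did not overlap in any of the 987 called genes, against no overlap in 48.2% of all tested genes. This follows largely from the rule of the call. There was no overlap in 99.4% of the genes with an adjusted p of at most 0.01 by limma. The same held for 93.8% of the genes with a change of at least 1. At the threshold, the smallest called change was 1.0003 and the largest uncalled change with an adjusted p of at most 0.01 was 0.9998 on the log2 scale by limma. A further 125 genes had a change of at least 1 without being called. The count depended on the pseudocount, with 1577 calls at 0.1 TPM and 435 at 5 TPM, and on the level, with 656 calls among genes with a mean of at least 5 TPM.

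The direction of the calls moved with the scaling. With TPM as deposited, 1106 genes were called, of which 858 (77.6%) were higher and 248 were lower in 13.1, against 55.9% higher after scaling. The median change over all tested genes was 0.17 on the log2 scale with TPM as deposited and -0.0008 after scaling, so the changes given here are relative to the bulk of the genes. Of the 987 called genes, 799 were also called with TPM as deposited.

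Most changes were modest and a small number were very large. An absolute log2 change between 1 and 1.5 was found for 685 called genes (69.4%), between 1.5 and 2 for 169, between 2 and 3 for 112, and of 3 or more for 21. Those 21 comprised 15 genes higher in 13.1 and 6 lower. The median was 1.31 among the genes higher in 13.1 and -1.22 among the genes lower, with extremes of 4.99 and -4.87. The standard error of a called gene had a median of 0.127 log2 units, against 0.107 over all tested genes.

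**Figure D1:**
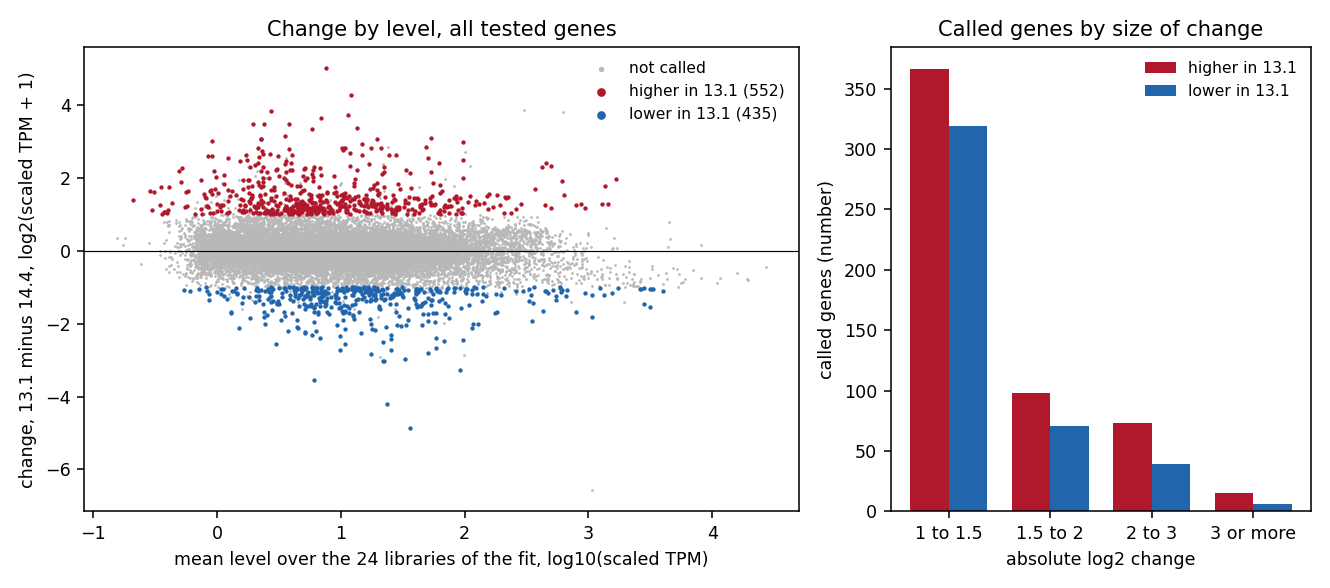
Left, the log2 change of each tested gene (13.1 minus 14.4, log2(scaled TPM + 1)) against its mean level over the 24 libraries (log10 axis), with called genes in red (552 higher in 13.1) and blue (435 lower). Right, the number of called genes by absolute log2 change, which is largest in the bin from 1 to 1.5 (685 genes) and reaches 21 genes at 3 or more.

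Calls occurred at all levels of expression. When the tested genes were divided by mean level into 4 classes of equal size, 3.78, 4.43, 3.87 and 4.81% were called from the lowest class to the highest. The direction shifted along the same order. Of the called genes, 73.3% were higher in 13.1 in the lowest class, 58.3% and 50.9% in the classes between, and 44.1% in the highest. The median level over the 24 libraries was 6.41 scaled TPM for genes higher in 13.1, 12.97 for genes lower in 13.1 and 8.30 for all tested genes. Only 3 of the 24 libraries were of 13.1. A gene raised in 13.1 alone thus keeps a low mean, and a gene lowered in 13.1 alone keeps a high one. Part of the shift in direction is built into this measure of level, so nothing is read from it or from these medians. As a share of all TPM, the genes higher in 13.1 held 4.17 ± 0.27% in 13.1 and 1.24 ± 0.15% in 14.4 (SD, n = 3 each). The genes lower in 13.1 held 3.45 ± 0.34% in 13.1 and 6.996 ± 0.21% in 14.4. The called genes together thus took a similar share in both branches, 7.62 ± 0.61% in 13.1 and 8.23 ± 0.36% in 14.4, with overlapping spreads. Mean levels under 1 scaled TPM were found in 14.4 for 106 of the genes higher in 13.1, and in 13.1 for 44 of the genes lower there. Of those 106, 6 were listed at 0 in all 14.4 libraries, while no called gene was listed at 0 in all 13.1 libraries. Over all tested genes, 1239 had a mean under 1 scaled TPM in 14.4 and 1051 in 13.1. Listed at 0 in all libraries of the branch were 20 in 14.4 and 10 in 13.1. A gene expressed in 13.1 alone can pass the level filter through 13.1, so nothing is read from these counts.

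The gene with the largest rise, PtStettler14.02G001400 (Stettler genome, chromosome 2, 98728 to 99760, plus strand), had 38.4, 58.9 and 37.9 scaled TPM in 13.1, against 0.481, 0.502 and 0.281 in 14.4. Its log2 change was 4.99 ± 0.21 (SE). Among the other branches it was highest in 13.3, at a mean of 10.3 scaled TPM, and its highest value in the 12 other libraries of tree 14 was 1.65. The 3 libraries of 13.1 lay above all others of the series.

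PtStettler14.09G140900 (chromosome 9, 12326512 to 12327592, plus strand) had 55.1, 73.6 and 47.1 scaled TPM in 13.1, against 2.26, 2.28 and 1.701 in 14.4, a log2 change of 4.25 ± 0.21 (SE). It too was highest in 13.3 after 13.1, with a mean of 19.4 scaled TPM. For both of these genes, 13.5 was close to the branches of tree 14, with means of 0.428 and 2.54 scaled TPM. The order of the branches of tree 13 was therefore 13.1, 13.3, 13.4, 13.2 and 13.5 by mean level for both genes.

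The gene with the largest fall, PtStettler14.14G101600 (chromosome 14, 8174027 to 8174810, plus strand), had 1.79, 2.12 and 1.56 scaled TPM in 13.1, against 81.1, 87.1 and 77.0 in 14.4, a log2 change of -4.87 ± 0.16 (SE). The other libraries of tree 13 had 4.82 to 18.8 scaled TPM, those of tree 14 had 16.1 to 82.9 and those of tree 4 had 17.9 to 193. It was the called gene that lay farthest below all 42 libraries outside 13.1.

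PtStettler14.15G121100 (chromosome 15, 14588756 to 14590771, plus strand) had 1.97, 1.96 and 2.21 scaled TPM in 13.1, against 51.4, 55.7 and 57.4 in 14.4, a log2 change of -4.20 ± 0.096 (SE). The other libraries of tree 13 had 2.39 to 4.44 scaled TPM, the other libraries of tree 14 had 13.8 to 57.1, and those of tree 4 had 71.2 to 104. Here the 3 trees did not overlap in any library, and 13.1 was the lowest branch of tree 13 by a small margin.

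**Figure D2:**
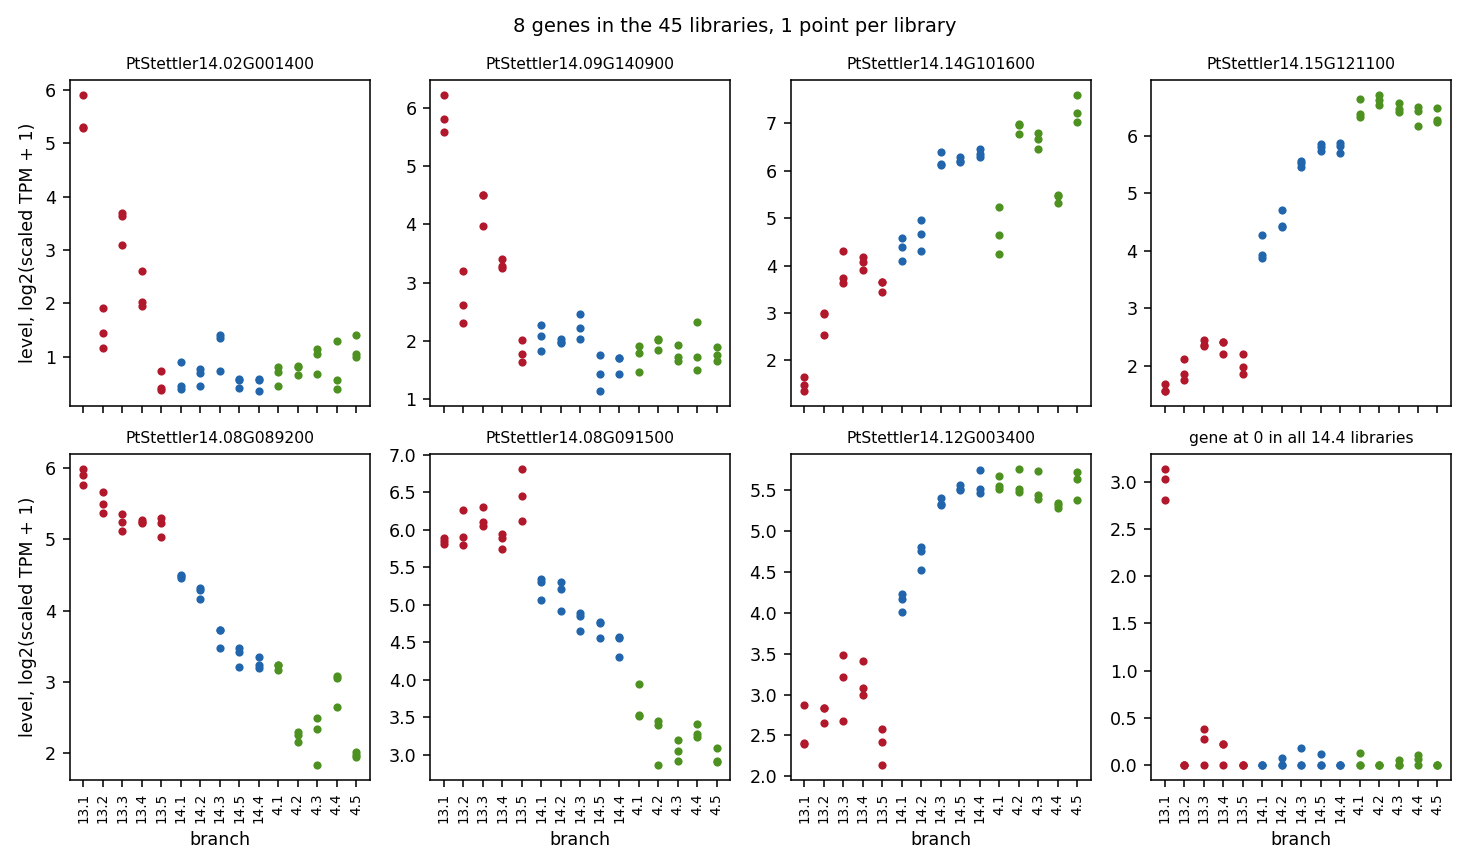
Levels (log2(scaled TPM + 1)) of 8 genes in each of the 45 libraries by branch, 1 point per library, with tree 13 in red, tree 14 in blue and tree 4 in green. PtStettler14.02G001400 and PtStettler14.09G140900 are high in 13.1 and partly in 13.3, PtStettler14.15G121100 separates the trees, and the last gene is above 1 scaled TPM in the 13.1 libraries alone.

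Called genes lay on all 19 chromosomes. The share of tested genes called was 3.001% on chromosome 10, the lowest, and 6.57% on chromosome 19, the highest, where 42 of 639 genes were called (23 higher and 19 lower in 13.1). Chromosome 19 of poplar is known for carrying the sex-determining region. Chromosome 17 came next with 5.75%, from 48 of 835 genes. Chromosome 5 was the most one-sided, with 47 genes higher and 15 lower in 13.1, and chromosome 14 leaned the other way, with 20 higher and 29 lower. Of the 15 tested genes on unplaced scaffolds, 0 were called. Along a chromosome there was no preferred part, as between 4.03 and 4.32% of genes were called in each of 5 equal parts of chromosome length.

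Short genes were called far more often than long ones. In 4 equal classes of gene span, from the shortest to the longest, 9.22, 4.11, 2.19 and 1.37% of tested genes were called. The shortest class (84 to 2055 bases) held 539 of the 987. The median span was 1762 bases for genes higher in 13.1, 2087 bases for genes lower and 3492 bases for all tested genes. The median absolute change fell along the same classes, with values of 0.33, 0.23, 0.19 and 0.17, while the median standard error was 0.130 in the shortest class and 0.096 to 0.103 in the others. The same order appeared in libraries outside the pair, for the contrast of stems described below, with 2.75, 2.08, 1.34 and 0.379% called. The part of the standard error in this order was not tested.

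**Figure D3:**
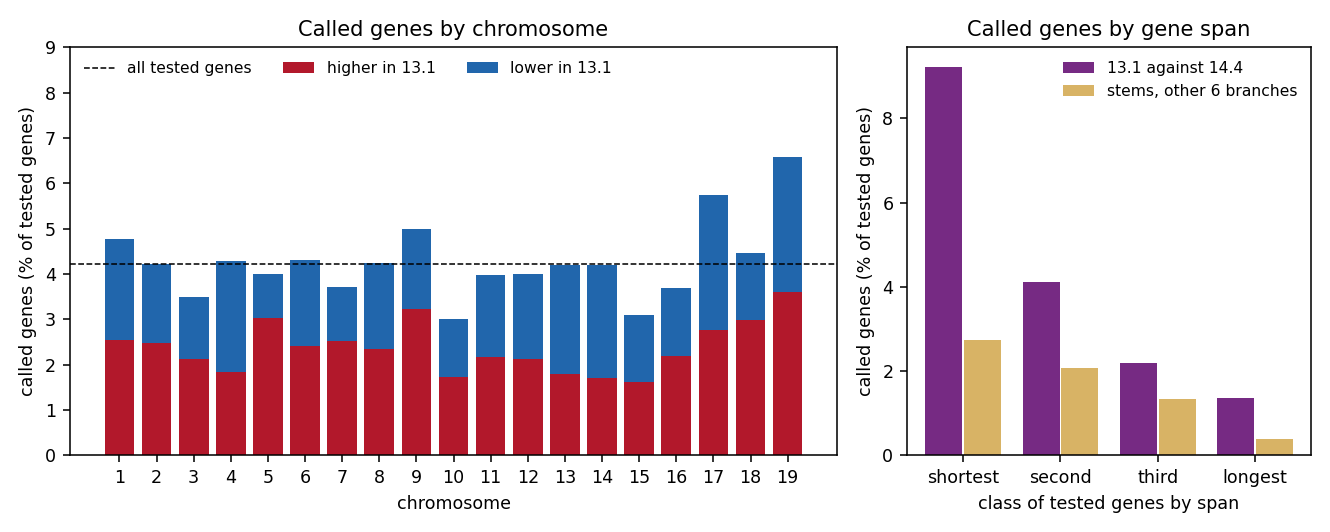
Left, genes called between 13.1 and 14.4 as a percentage of the tested genes of each chromosome, split into higher (red) and lower (blue) in 13.1, with the dashed line at 4.22% for all tested genes. Right, the percentage of genes called in each class of gene span for 13.1 against 14.4 and for the stems over the other 6 branches, both highest in the shortest class (9.22 and 2.75%).

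Called genes also lay next to each other. For 112 of the 987 (11.3%) the next tested gene on the chromosome was called too, against 4.22% of all tested genes. In 95 of these 112 adjacent pairs both genes changed in the same direction, and in 89 both lay on the same strand. The matching shares over all adjacent tested genes were not computed, so nothing is read from these counts. Uninterrupted runs of called genes numbered 799 of a single gene, 58 of 2, 9 of 3, 4 of 4 and 5 of 5 to 7. Of the 18 runs of at least 3 genes, 17 changed in 1 direction throughout. Genes in tandem are often near-identical copies, and reads from such copies can be split between them. Whether the members of these runs are copies was not examined, so their values are uncertain as single genes and are given as sums over the run.

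The longest run held 7 genes on the plus strand of chromosome 17 (12335589 to 12393300), all lower in 13.1 with log2 changes of -1.699 to -1.19. Their summed level was 102, 134 and 106 scaled TPM in 13.1, against 332, 359 and 274 in 14.4. The other branches lay between 127 (4.1) and 367 (4.5), so that 14.4 was not extreme in the series while 13.1 was the lowest.

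On chromosome 17 a run of 6 genes on the minus strand (3348119 to 3378573) was higher in 13.1, at 60.5, 82.1 and 51.3 summed scaled TPM, against 11.2, 10.6 and 9.47 in 14.4. A run of 6 genes on the minus strand of chromosome 5 (15066942 to 15158997) reached 263, 352 and 222 in 13.1, against 34.5, 33.9 and 27.1 in 14.4. In both runs 13.3 was the next highest branch, with 24.5 and 118, and the remaining 12 branches had 9.13 to 16.1 for the first run and 21.6 to 51.2 for the other. These runs shared the branch order of PtStettler14.02G001400 and PtStettler14.09G140900 in having 13.1 first and 13.3 second.

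A run of 5 genes on the plus strand of chromosome 1 (41966709 to 42051450) summed to 49.9, 14.2 and 24.4 scaled TPM in 13.1, against 2.92, 2.74 and 4.22 in 14.4. The means of the other branches lay between 2.84 (4.2) and 16.9 (4.4), so the 13.1 library at 14.2 was below the mean of 4.4. The window of 1 Mb from 42000001 to 43000000 on this chromosome had the highest share of called genes, 8 of 34 tested, whereas 43 of the 361 windows with at least 20 tested genes held none.

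A run of 5 genes on the minus strand of chromosome 8 (10680127 to 10702931) was strongly expressed. It summed to 5773, 6541 and 4994 scaled TPM in 13.1, against 1663, 1461 and 1695 in 14.4. This run differed in its pattern. All 5 branches of tree 13 had means of 4094 to 5769, the other 4 branches of tree 14 had 1710 to 3548, and the branches of tree 4 had 595 to 2057. Of its 5 genes, 3 were also called between the stems over the other 6 branches, and 0 of the tested genes of the other 4 runs were. Over all genes tested between the stems 1.63% were called, and of the pair's genes tested there 11.96% were called in the same direction. The stem calls fell to 0 without branch 14.3, so nothing is read from these counts.

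The position of each other branch between 13.1 (100%) and 14.4 (0%) was taken as the median over the 987 called genes. Branch 13.2 was nearest to 13.1, at 69.5% (64.2 to 71.4% in its 3 libraries), followed by 13.5 at 56.2% (50.1 to 62.0%). These ranges did not overlap. Then came 14.1 at 48.8% (45.4 to 52.5%), 13.4 at 44.7% (41.7 to 46.7%), 13.3 at 43.1% (36.7 to 49.4%) and 14.2 at 42.6% (38.1 to 48.0%), whose libraries overlapped each other. The highest library of 14.1 also lay within the range of 13.5. On the side of 14.4 lay 14.3 at 14.4% (11.3 to 16.5%) and 14.5 at 5.05% (3.16 to 5.87%).

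The stems were therefore not fully separated along this axis. The 4 other branches of tree 13 had positions of 43.1 to 69.5% and the 4 other branches of tree 14 had 5.05 to 48.8%. Branch 14.1 lay among those of tree 13, and 14.2, at 42.6%, lay just below the lowest of them, with libraries that overlapped those of 13.3 and 13.4. Branches 14.3 and 14.5 stood toward 14.4, and their libraries did not overlap with those of any branch of tree 13. The genes and end points of this axis were taken from 13.1 and 14.4, which pushes both ends outward. Nothing is therefore read from the distances of the ends to 13.2 and 14.5. With genes and end points from a fit without the library concerned, the 13.1 libraries lay at 93.6, 98.7 and 94.9%. Those of 14.4 lay at 4.75, -2.40 and 3.67%, a range that overlapped the one given above for 14.5.

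Branches of tree 4 spread over much the same range as those of tree 14. Branches 4.1 and 4.4 lay at 45.2% and 44.8%, 4.3 at 15.2%, 4.2 at 6.91% and 4.5 at 0.54%. Their single genes were more scattered. In 4.5, 49.0% of the called genes lay beyond 14.4, in 4.2 the share was 41.0% and in 14.5 it was 29.5%, while in 13.2 it was 2.23%. No branch had more than 7.90% of the genes beyond 13.1. For 4.1 and 4.4 the position differed with direction, at 33.7% and 29.4% over genes higher in 13.1, against 57.1% and 55.0% over genes lower in 13.1.

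**Figure D4:**
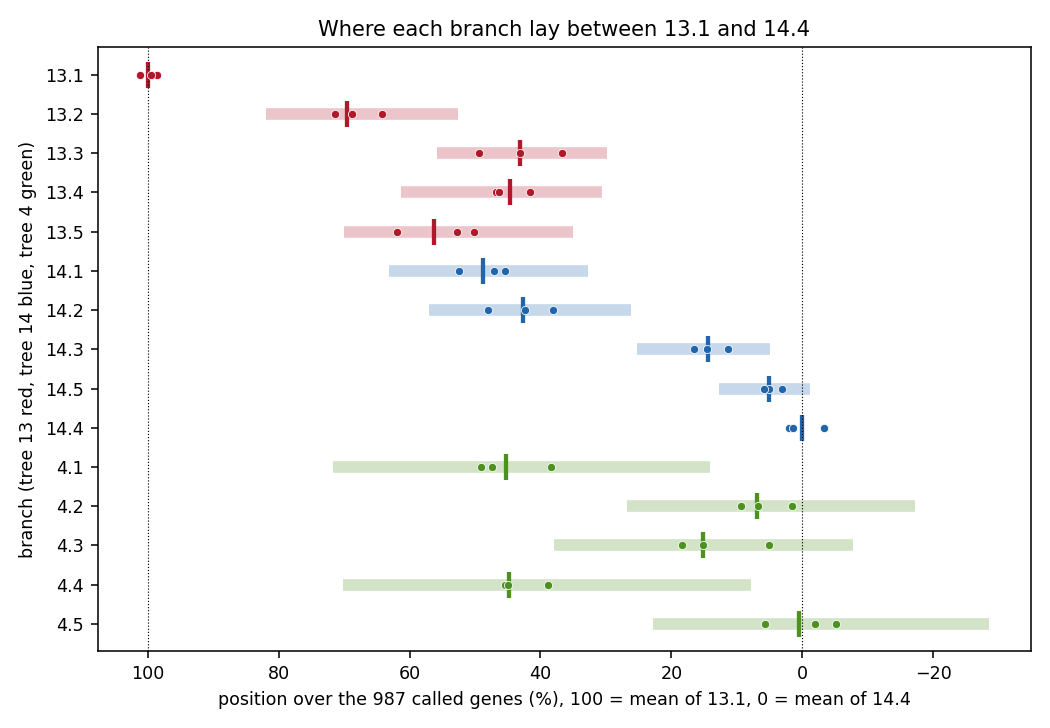
Position of each branch between 13.1 (100%, left) and 14.4 (0%, right) over the 987 called genes, with points for the 3 libraries, a tick for the median of the branch and a pale bar for the middle 50% of genes. Branch 13.2 lies nearest to 13.1 (69.5%), 14.1 lies among the branches of tree 13 with 14.2 just below them (42.6%), and 14.3 and 14.5 lie next to 14.4.

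The change between 13.1 and 14.4 could be divided into steps through the means of the other 3 branches of each stem in the fit. Of the summed change of the called genes, 49.1% lay between 13.1 and the other branches of stem 13, 31.0% between the stems and 19.9% between the other branches of stem 14 and 14.4. Over all tested genes the shares were 41.8, 29.1 and 29.1%. Genes higher in 13.1 had 54.8% of their change in the first step, and genes lower in 13.1 had 41.2%. When the 8 branch means of a gene were ordered, the widest gap set 13.1 alone against the other 7 branches for 486 called genes (49.2%, against 17.1% of all tested genes), and set 14.4 alone for 13 (1.32%, against 5.93%). It separated the 2 stems completely for 102 genes (10.3%, against 3.58%), of which 32 were higher and 70 lower in 13.1. For 149 genes (15.1%, against 3.75%) it placed 14.2 with the 4 branches of stem 13, leaving 14.3, 14.4 and 14.5 on the other side. The called genes were chosen for a wide difference between 13.1 and 14.4, so nothing is read from these shares.

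Over all tested genes, values outside the rest of the series were more frequent in 13.1 than in 14.4. All 3 libraries of 13.1 lay outside the range of the 42 other libraries for 817 tested genes (3.49%), above it for 501 and below it for 316. Branch 14.4 did so for 50 genes, and the only other branch with a number of this size was 4.5 with 811. The remaining branches had 2 to 102 such genes. Tested genes had passed the level filter in the libraries of the joint fit, which left out 4.5 and several other branches. A gene expressed in a left-out branch alone could not enter, while a gene expressed in 13.1 alone could. The numbers of the left-out branches may therefore be too low beside that of 13.1.

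Genes for which a branch lay outside all other libraries could be near-silent elsewhere. A gene on the minus strand of chromosome 8 (8887095 to 8888751) had 7.21, 7.81 and 6.03 scaled TPM in 13.1 and was listed at 0 in all 3 libraries of 14.4. Its highest value in the 39 remaining libraries was 0.301, in 13.3. This gene thus passed the level filter through the 13.1 libraries alone. At the other end, a gene on the plus strand of chromosome 10 (13090957 to 13093319) had 1.41, 1.15 and 1.49 scaled TPM in 13.1, against 4.26, 4.39 and 3.69 in 14.4, where it exceeded all other libraries. A gene on the plus strand of chromosome 5 (21720503 to 21722199) had 18.03, 17.7 and 20.4 scaled TPM in 13.1, against 6.04, 5.28 and 5.66 in 14.4, where it was below all other libraries. These margins were narrow, as 3.33 was the next highest value of the chromosome 10 gene and 6.42 the next lowest of the chromosome 5 gene. The chromosome 10 gene was no longer called with TPM as deposited (log2 change -0.98), with a pseudocount of 5 TPM (-0.52) or when limma tested against a minimum change.

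The same genes were then examined in libraries outside the pair. Stem 13 (13.2, 13.3 and 13.5) was compared with stem 14 (14.2, 14.3 and 14.5) on branch means, and genes were called by limma at an adjusted p of at most 0.05. Of 23083 tested genes, 377 were called (1.63%), with 148 higher (0.641%) and 229 lower (0.992%) in stem 13. Of the 987 genes called in the pair, 953 were tested here and 114 (11.96%) were called in the same direction, 34 higher and 80 lower, with 1 called in the opposite direction. This comparison had 1 individual and 1 of each stem behind it, so its p-values measure the spread between branches.

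Most of the 953 genes moved in the pair's direction whether or not they were called. The stem change had the sign of the pair's change for 910 of the 953 genes (95.5%), against 71.5% of all tested genes. Its median toward the pair's direction was 0.41 on the log2 scale, against 0.068 over all tested genes. For genes lower in 13.1 the median was 0.49 and 18.4% were called in the same direction, whereas for genes higher in 13.1 the median was 0.38 and 6.56% were called. Among the 9 single pairs of a branch of stem 13 with a branch of stem 14, the median toward the pair's direction was between -0.05 and 0.80, so that at least 1 branch pair did not move in this direction. Branch means of the stems did not overlap for 200 of the 435 genes lower in 13.1 (46.0%). The same held for 120 of the 518 tested genes higher in 13.1 (23.2%). The pair's direction was found for 199 of those 200 genes and for 119 of those 120. Over all 23083 tested genes, 22.0% did not overlap, but this share pools both directions. It held 2450 genes higher and 2629 lower in stem 13. In the pair's direction, both sets therefore stood above the share over all tested genes.

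The number of calls between the stems depended on single branches. Without 14.3, 0 genes were called by limma (2817 genes at an unadjusted p under 0.05, against 4013 with all 6 branches). Without 13.2, 13.5 or 14.5, 29, 37 and 21 genes were called, and without 14.2 the number was 1030. Leaving replicate 1 out of every branch mean gave 75 calls, testing all genes above 0 gave 33, and adding 13.4 and 14.1 gave 951. The share of the pair's genes with the pair's sign was 89.8 to 97.3% when each of the 6 branches was left out in turn.

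PtStettler14.15G121100, described above, had the largest fall among the genes called in both comparisons, with a stem change of -3.17 ± 0.31 (SE, limma adjusted p = 0.0106). It was followed by PtStettler14.12G003400 (chromosome 12, 433039 to 438206, minus strand), which had 6.31, 4.30 and 4.26 scaled TPM in 13.1, against 43.2, 52.6 and 44.5 in 14.4. The means of the other branches of tree 13 were 4.24 to 8.01 scaled TPM and those of tree 14 were 16.6 to 44.9, and the stem change was -2.43 ± 0.25 (SE, limma adjusted p = 0.0129). For both genes the 2 stems did not overlap, and 14.1 and 14.2 had the lowest levels of tree 14.

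By the stem change, the largest rise among genes called in both was found for PtStettler14.08G089200 (chromosome 8, 6248139 to 6250978, minus strand). It had 62.4, 58.7 and 53.0 scaled TPM in 13.1, against 8.46, 8.21 and 9.24 in 14.4, and its stem change over the other branches was 1.55 ± 0.21 (SE, limma adjusted p = 0.0246). The 12 other libraries of tree 13 had 31.9 to 49.6 scaled TPM and the 12 other libraries of tree 14 had 8.30 to 21.7. The next was PtStettler14.08G091500 (chromosome 8, 6469692 to 6470514, plus strand), with 54.9, 58.3 and 56.4 scaled TPM in 13.1, against 18.6, 22.8 and 22.4 in 14.4. Its stem change was 1.32 ± 0.15 (SE, limma adjusted p = 0.0176), and 13.1 was not its highest branch, as 13.5 had a mean of 88.7 scaled TPM. In both genes the libraries of tree 13 lay above those of tree 14 without overlap, and tree 4 was lowest. For PtStettler14.08G089200 the highest tree 4 library, at 8.49 scaled TPM, reached the lowest libraries of 14.4.

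The 2 genes with the largest rise in the pair were not called between the stems. PtStettler14.02G001400 changed by 1.06 ± 0.65 (SE, limma adjusted p = 0.443) and PtStettler14.09G140900 by 1.06 ± 0.56 (SE, limma adjusted p = 0.379), with 13.3 high and 13.5 low within stem 13. The stem change of PtStettler14.14G101600 was -2.26 ± 0.45 (SE, limma adjusted p = 0.0558). It was not called, but it passed in 4 alternative settings, with an adjusted p of 0.0074 with TPM as deposited, 0.0076 without 14.2, 0.047 without the co-varying genes and 0.0468 without replicate 2.

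Branches 13.4 and 14.1 formed a second comparison of the stems that shared no library with the pair. Each stem was again a single branch, so branch and stem cannot be told apart in it. Its errors measure spread between libraries of the same branch. The 18 libraries of the other 6 branches shared in that error estimate. Of 23229 tested genes, 21 (0.0904%) were called by limma under the rule used for the pair. Of the 987 genes, 955 were tested, of which 10 were called in the pair's direction and 4 in the opposite direction. The change had the pair's sign for 440 genes (46.1%), against 44.0% of all tested genes, and its median toward the pair's direction was -0.04 on the log2 scale. Over the 9 pairs of a 13.4 library with a 14.1 library this median was between -0.10 and 0.04. The 2 branches lay at 44.7% and 48.8% of the axis, and replicate 3 of 14.1 was the shallowest library of the series, with 50.6% of its TPM in the 198 co-varying genes. Without this library the median was -0.06.

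Single genes were mixed between 13.4 and 14.1. PtStettler14.15G121100 was called, at -1.68 ± 0.11 (SE, limma adjusted p = 2.9e-08), and so were PtStettler14.02G001400 at 1.61 ± 0.22 and PtStettler14.09G140900 at 1.25 ± 0.20 (SE, limma adjusted p = 0.00021 and 0.00071). PtStettler14.12G003400, at -0.97 ± 0.15, and PtStettler14.08G089200, at 0.76 ± 0.091, missed the minimum change but not the threshold on p (SE, limma adjusted p = 0.00066 and 5.7e-05). PtStettler14.08G091500 had a change of 0.63 ± 0.15 (SE, limma adjusted p = 0.0166) and PtStettler14.14G101600 one of -0.31 ± 0.17 (SE, limma adjusted p = 0.363), neither of them called. The genes described on chromosomes 5 and 10 went against the pair. The chromosome 5 gene had a change of -0.39 ± 0.11 and the chromosome 10 gene one of 0.24 ± 0.12 (SE, limma adjusted p = 0.0403 and 0.267), and neither was called.

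**Figure D5:**
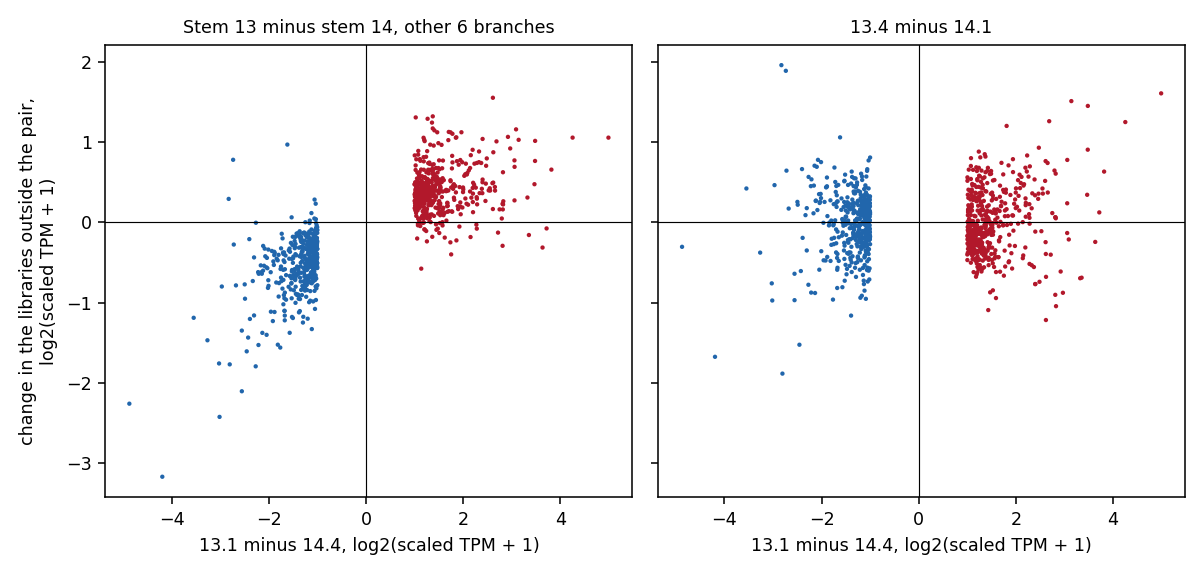
Log2 change of the called genes in libraries outside the pair (vertical axes) against their change between 13.1 and 14.4 (horizontal axes), 1 point per gene, red for genes higher and blue for genes lower in 13.1. Left, stem 13 minus stem 14 over the other 6 branches, where 910 of 953 genes share the sign of the pair, and right, 13.4 minus 14.1, where 440 of 955 do.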

How the data were processed

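Leaf mRNA of Populus trichocarpa was sequenced in 45 libraries. Per the submitters' processing notes, Trimmomatic 0.36, HISAT2 2.1.0 and StringTie 1.3.4d were used. The study's methods name the Stettler genome as the reference. The authors deposited TPM and FPKM values per gene and library, and read counts were not used here. FPKM served only to recover depth (11900000 to 35840000 fragments per library, median 23970000). The study's own pairwise test was run on counts, whereas limma 3.58.1 in R 4.3.3 was used here on log2(scaled TPM + 1) (variance trend on, p-values adjusted after Benjamini and Hochberg). TPM was scaled by median of ratios over 25014 genes above 0 in every library. A fit tested the genes that reached 1 scaled TPM in 3 or more of its libraries. Other steps were run with Python 3.11.15, numpy 2.4.6, pandas 2.3.3 and scipy 1.17.1.

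Named genes were the 2 largest changes in each direction for the pair, the 2 largest in each direction among pair genes also called between the stems, and the called gene farthest outside all other libraries for each end. The pair, lists, rules and tests were chosen with earlier results of these data known. The fits were tested on simulated data with 200 changed genes. Recovery for the pair was 98% at a change of 2 log2 units (23383 genes, 0 false calls). For the stems it was 100% at 1 log2 unit (23083 genes, 35 false calls). For 13.4 against 14.1 it was 98% at 2 log2 units (23229 genes, 0 false calls). Beside 200 recovered genes, the 35 false calls of the stems were a larger share than their adjusted p threshold allows. The stem calls may thus hold more false calls than that threshold states. Recovery holds for the simulated data only, and not for weaker genes or smaller changes. Of the pair's called genes, 69.4% changed by 1 to 1.5 log2 units, less than the change simulated for the pair. Alternatives covered the pseudocount, filter, scaling, trend, thresholds, libraries, branches and the replicate block. No gene names or sequences were used, because 0 identifiers matched the name table.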

Additional observations from a re-analysis of the deposited data

Results flagged for a closer look

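Branch values within a tree were examined for a single branch far from the rest, for positions, named genes and run sums. Of 48 groups of 4 or 5 branches examined, 3 held such a branch, and chance gives about 1 in 20. PtStettler14.08G089200 was higher in 13.2, at 44.6 scaled TPM, than in the other 3 branches of tree 13 outside the pair, of which the next was at 37.0. PtStettler14.02G001400 was higher in 14.3, at 1.29 scaled TPM, than in the other 3 branches of tree 14 outside the pair, of which the next was at 0.557. PtStettler14.12G003400 was lower in 4.4, at 38.7 scaled TPM, than in the other 4 branches of tree 4, of which the next was at 45.1.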

How the results depend on the processing

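For 13.1 against 14.4, 987 genes were called. The number was 1577 with a pseudocount of 0.1 TPM and 435 with 5 TPM, 656 at a mean of at least 5 TPM, 215 with limma's test against a minimum change, and 6600 with no minimum change. Leaving out each of the 6 libraries gave 916 to 1039. The replicate numbers shared only a number: same-numbered libraries of 13.1 and 14.4 had correlations of -0.14, -0.21 and 0.13 in their deviations from branch means, and not every library correlated best with its own number. With the replicate block 986 genes were called.

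For the stems over the other 6 branches, 377 genes were called, against 33 without a filter and 951 with 13.4 and 14.1 added. Without branches 13.2, 13.5, 14.2, 14.3 and 14.5 the numbers were 29, 37, 1030, 0 and 21. Leaving out a replicate number gave 75 (without replicate 1) to 404. The pair's genes called in the same direction numbered 114, against 172 with TPM as deposited, 13 without a filter, and 12, 17, 349, 0 and 12 without those branches, with 31 to 128 over replicate numbers. The median toward the pair's direction stayed positive in all these settings (0.28 to 0.55, and 0.368 to 0.442 over replicate numbers).

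For 13.4 against 14.1, 21 genes were called, against 12 in its 6 libraries alone, 13 at a mean of at least 5 TPM, and 48 and 8 with pseudocounts of 0.1 and 5 TPM. Leaving out a library gave 18 to 25 calls and medians toward the pair of -0.06 to -0.01. Mean positions of the trees moved by less than the spread between branches. Among named genes, the stem calls of PtStettler14.08G089200, PtStettler14.08G091500, PtStettler14.12G003400 and PtStettler14.15G121100 were lost in 5, 4, 4 and 2 settings, in each case including the one without 14.3. The stem call of PtStettler14.14G101600 was gained in 4. The pair call of the chromosome 10 gene was lost in 3 settings and that of PtStettler14.08G091500 in 1. No named gene changed direction. Causes were not tested. Low values rest on few reads: about 18.3 fragments, the median over libraries, made up 1 TPM of a 1-kilobase transcript.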
